A study of Aquilegia coerulea with 32 samples.

Results

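The genes of chromosome 4 of *Aquilegia coerulea* are the 3149 transcripts, 1 per gene, whose identifier starts with Aqcoe4G, out of 30023 transcripts in the deposited tables. They were chosen by the identifier alone and set against the 26401 genes of chromosomes 1, 2, 3, 5, 6 and 7, which hold between 3292 (chromosome 6) and 5041 (chromosome 1) genes each. The 473 transcripts of unplaced scaffolds belong to neither side. Levels were measured in floral buds of the cultivar 'Kiragami', all wild-type and with 3 sepals removed, at 4 stages of 8 libraries each. Stamen primordia were initiating at s1, all stamen and staminode primordia were present at s2, carpel primordia were being raised at s3, and at s4 the carpels had used up the apex. A library held 2 buds from 2 individuals at s1, s2 and s3 and 1 bud at s4, so that the number of buds pooled cannot be told apart from s4.

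Chromosome 4 of *Aquilegia* is known from genome studies of the genus for a history unlike that of the other chromosomes, with more polymorphism, more repeated sequence and fewer genes for its length. It carries ribosomal DNA arrays. Its genes include members of families that often lie in tandem in plant genomes, such as cytochrome P450 enzymes, glycosyltransferases and NB-ARC receptors of immunity, beside single regulators of meristems and flowers. Gene names below are those of the closest *Arabidopsis* gene as the study annotated it, and their roles are those known in *Arabidopsis*. The annotation covered 204 genes of chromosome 4, all of them genes that the authors had called different between stages of these same libraries. They are not the same set as the 204 genes called below between s4 and s1, of which 175 were annotated and 29 were not.

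Library totals ran from 21502103 to 31647297 estimated counts. Markers of the floral meristem were present in all libraries, and *AqSTM1*, *AqSTM2* (Aqcoe1G341500), *AqPAN* (Aqcoe3G399500) and *AqUFO1* (Aqcoe1G161900) averaged 33.0, 6.03, 6.59 and 4.25 TPM at s4, against 142, 40.7, 52.9 and 79.3 TPM at s1. TPM is a level already scaled for transcript length and library size. In whole buds, fewer cells of a type and less RNA per cell cannot be told apart.

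Fewer genes of chromosome 4 were expressed than of any other chromosome. Of 3149 genes of chromosome 4, 1542 (49.0%) exceeded 1 CPM, a count scaled to library size, in any of the 32 libraries, against 18709 of 26401 (70.9%) in the rest. The other 6 chromosomes lay close together, from 69.5% on chromosome 3 to 72.2% on chromosome 1. These genes are called the genes tested below, since they entered the tests between stages. With more than 1 CPM required in every library, 939 genes of chromosome 4 remained, 29.8%, against 14550 in the rest, 55.1%. No count in any library was found for 372 genes of chromosome 4, 11.8% of them, against 1107 genes of the rest, 4.19%, with a range of 3.65% to 4.78% over the 6 chromosomes. Genes are not replicates of a chromosome and every library holds the same genes, so these shares carry no p-value.

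The order of the chromosomes was the same in every library at its lower end. The share of chromosome 4 genes at 1 TPM or more ran from 39.0% (s4 replicate 1) through a median of 40.4% to 41.4% (s1 replicate 1), while the lowest of the other 6 chromosomes in a library never stood below 62.2%. Chromosome 4 had the lowest share, the lowest median level and the lowest part of all TPM of the 7 chromosomes in 32 of 32 libraries. By stage the share averaged 40.5% ± 0.531 in s1 buds, 40.3% ± 0.721 in s2, 40.5% ± 0.627 in s3 and 39.9% ± 0.555 in s4 (SD, n = 8 each), and the ranges of all 4 stages overlapped.

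**Figure D1:**
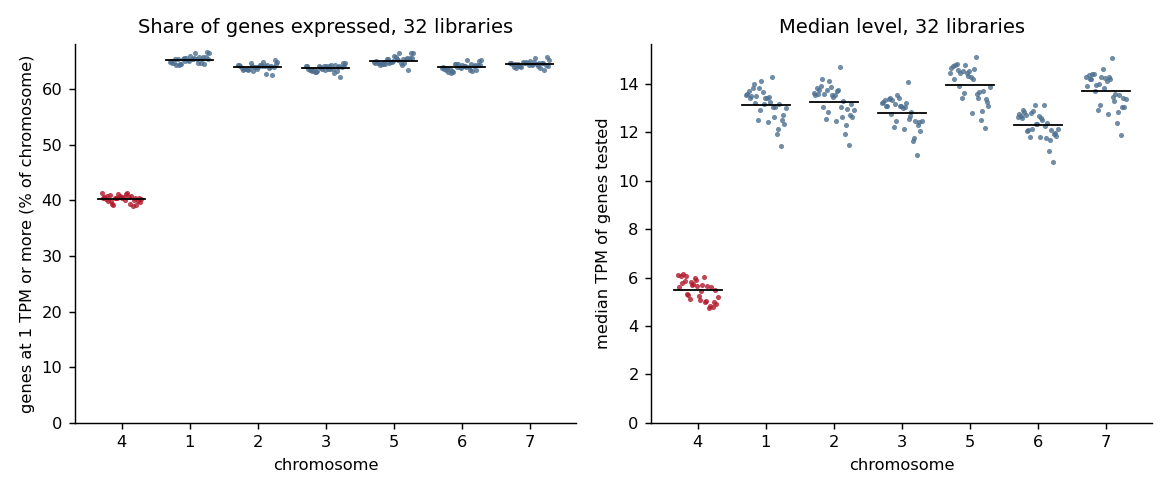
Share of the genes of each chromosome at 1 TPM or more (left, percent) and median TPM of its genes tested (right), chromosome 4 in red and the others in blue. Each point is 1 of 32 libraries and each black line their mean; the points of chromosome 4, 39.0% to 41.4% on the left and 4.74 to 6.14 TPM on the right, lie below those of every other chromosome.

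The expressed genes of chromosome 4 were also expressed at lower levels. Over the genes tested, the median of the mean TPM was 5.86 on chromosome 4 and 13.7 in the rest, a log2 ratio of -1.22, and the other 6 chromosomes ran from 12.7 to 14.4 TPM. The middle 50% of the genes tested lay between 1.53 and 20.6 TPM on chromosome 4 and between 3.90 and 35.3 TPM in the rest. A mean of at least 10 TPM was reached by 593 genes of chromosome 4, 18.8% of them, against 41.1% of the rest, and at least 100 TPM by 80 genes, 2.54%, against 5.72%. In single libraries the median level of chromosome 4 genes ran from 4.74 TPM (s4 replicate 1) to 6.14 TPM (s1 replicate 5). Its stage means were 5.87 ± 0.295 TPM in s1 buds, 5.64 ± 0.295 in s2, 5.39 ± 0.376 in s3 and 5.06 ± 0.327 in s4 (SD, n = 8 each). The rest stood at 13.7 ± 0.244, 13.5 ± 0.485, 13.3 ± 0.613 and 12.5 ± 0.512 TPM at the same stages, so that the medians of both sides were lowest at s4.

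Chromosome 4 held 10.49% of all transcripts and 4.27% ± 0.240 of the summed TPM (SD over 32 libraries), with a range of 3.81% (s4 replicate 6) to 4.94% (s4 replicate 4). Chromosome 6, which has nearly as few genes, gave 10.3% ± 0.288. Of the 100 genes of highest mean TPM in the whole series, 4 lie on chromosome 4, and of the highest 1000, 41. The 10 highest genes of chromosome 4 made up 24.1% of its TPM, against 10.02% to 37.2% for the 10 highest genes of each other chromosome. Without them the chromosome gave 3.24% of all TPM.

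Transcripts of chromosome 4 were shorter over all genes, with a median of 1234 bp against 1399 bp in the rest and 1372.5 to 1416 bp on the single chromosomes. Among the genes tested the difference was small, 1590.5 bp against 1640 bp. The genes that were not tested had a median of 882 bp on chromosome 4 and 855 bp in the rest. Chromosome 4 thus held a larger part of short transcripts, with 15.6% under 500 bp against 10.1% in the rest.

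The difference in the share expressed was also found between transcripts of like length. In each of 6 length classes a smaller share of the genes of chromosome 4 was tested, from 17.1% against 29.6% under 500 bp, through 57.1% against 82.4% from 1500 to under 2000 bp, to 77.8% against 93.8% at 3000 bp and over. Averaged over the classes by their number of chromosome 4 genes, the difference was -18.0 percentage points, beside -21.9 without classes. The median level of the genes tested was lower on chromosome 4 in all 6 classes as well, least so under 500 bp, 7.74 TPM against 10.3 TPM, and most so at 3000 bp and over, 3.42 TPM against 12.1 TPM.

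**Figure D2:**
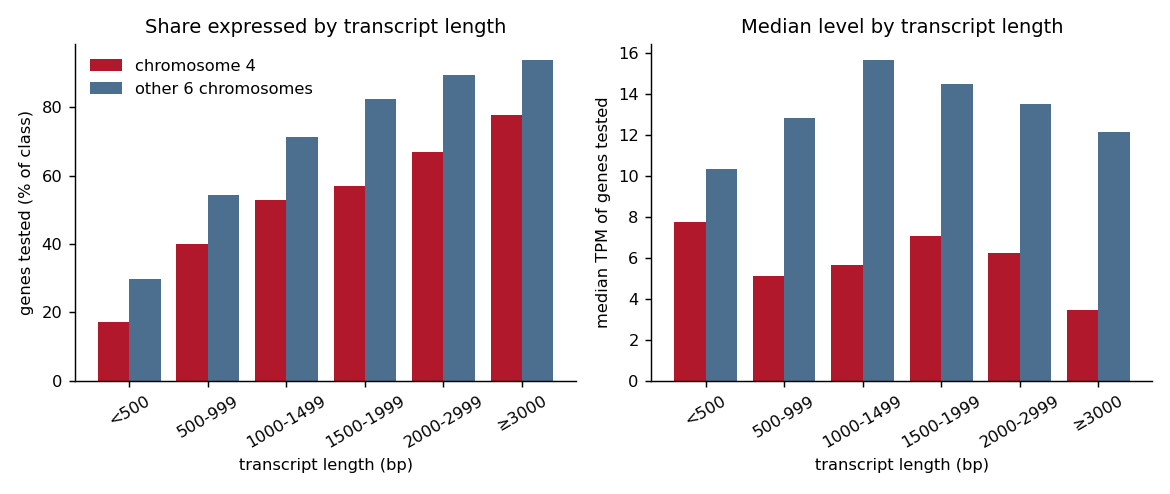
Genes tested in percent of each class of transcript length (left) and median TPM of those genes (right), chromosome 4 in red beside the other 6 chromosomes together in blue. Every red bar is lower than its blue neighbour, from 17.1% beside 29.6% in the shortest class to 77.8% beside 93.8% in the longest.

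The files give no coordinates, and position is the order of the number in the identifier. In 10 windows of 314 or 315 genes along chromosome 4, the share tested was 61.3% in the first window, Aqcoe4G000100 to Aqcoe4G031500, and between 44.1% (window 4) and 51.4% (window 10) in the other 9. The 60 windows of the other 6 chromosomes ran from 59.6% to 88.2%, so that only the first window of chromosome 4 reached their range and 9 of 10 lay below all of them. The median level of the genes tested was 11.1 TPM in window 1 and 11.5 TPM in window 10, and 3.63, 3.11 and 3.09 TPM in windows 4, 5 and 6. It lay below all 60 windows of the others, whose lowest was 7.88 TPM, in 8 of 10 windows. Transcripts had a median of 1461 bp in window 1, 984 bp in window 6 and 1437 bp in window 10. The other chromosomes also had their lowest median share in window 6, 62.6% over the 6 of them, beside 82.5% in window 1 and 75.3% in window 10.

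**Figure D3:**
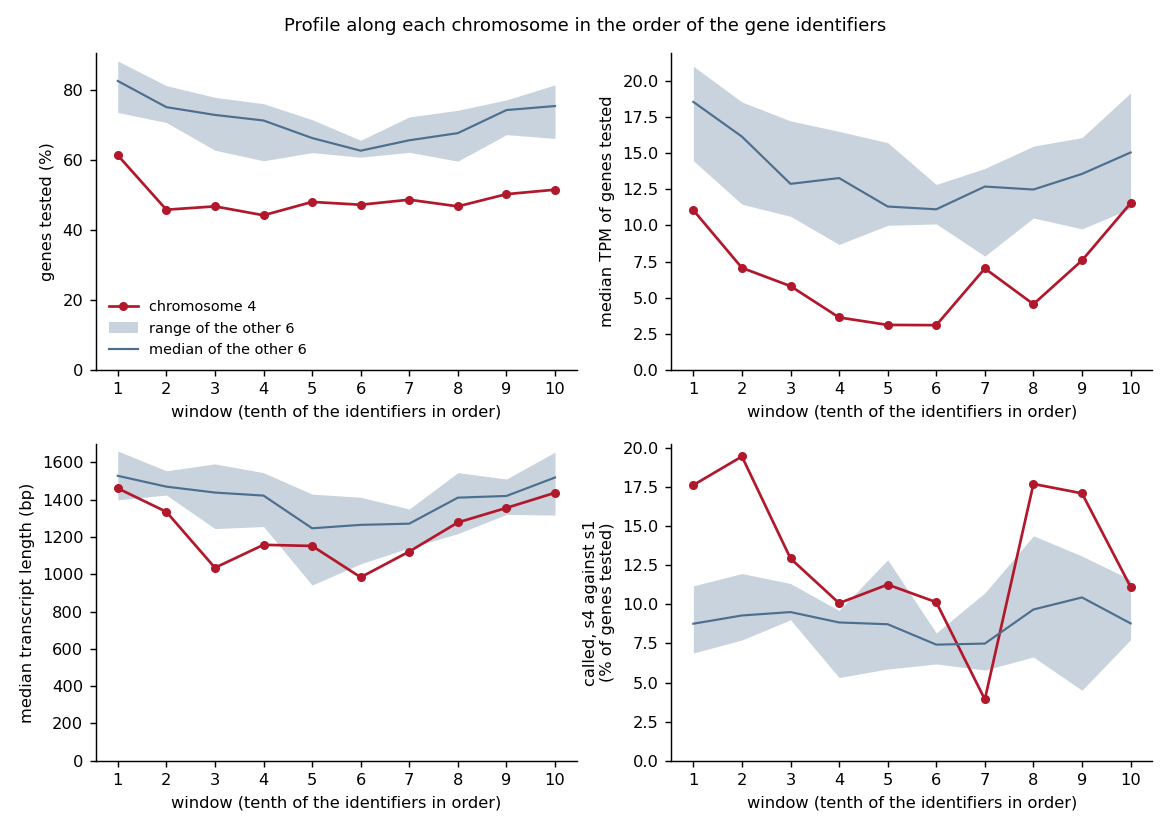
Share of genes tested, median TPM of the genes tested, median transcript length and share called between s4 and s1 in 10 windows along each chromosome, by the order of the gene identifiers. Chromosome 4 is the red line, and the blue line and band are the median and range of the other 6 chromosomes; the share tested on chromosome 4 falls to 44.1% to 51.4% beyond window 1 and its level to 3.09 TPM in window 6.

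Changes between stages were tested with edgeR's quasi-likelihood test in 1 fit over all 20477 genes tested. A call needed an adjusted p (Benjamini-Hochberg) below 0.05 and a log2 fold change of 1 or more in size, and fold changes are the later stage over the earlier. Between s4 and s1, 204 of the 1542 genes of chromosome 4 were called, 13.2%, beside 9.24% of all genes tested. Of them 155 were higher at s4, 10.1% beside 7.31% of all genes tested, and 49 were lower at s4, 3.18% beside 1.94%. The rest of the chromosomes stood at 8.97%, each between 8.15% and 9.54%. In percent of all genes of a chromosome, expressed or not, the calls were 6.48% on chromosome 4 and 6.36% in the rest, which ran from 5.66% to 6.88%.

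Genes of the lowest level were called most often on both sides, and chromosome 4 held more of them. In the lowest of 5 classes of mean level lay 33.1% of its genes tested against 18.7% of the rest, and there 25.4% of the genes were called on chromosome 4 against 24.7% in the rest. In the next 2 classes the shares were 11.8% against 10.9% and 5.45% against 4.62%, in the fourth class 1.52% against 3.56%, and in the highest 5.88%, 11 of 187 genes, against 2.75%, 107 of 3896. Averaged over the classes by their number of chromosome 4 genes, the difference fell to 0.74 percentage points, beside 4.26 without classes. In single classes it ran from -2.03 (class 4) to 3.14 points (class 5). With more than 1 CPM required in at least 8 libraries, 130 genes of chromosome 4 were called, 9.95% of its genes tested beside 7.60% of all. The spread within stages moved the same way. The SD of log2 CPM about the stage mean had a median of 0.46 over the genes of chromosome 4 and 0.34 over the rest, and the difference of 0.12 came to 0.03 within classes of level.

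**Figure D4:**
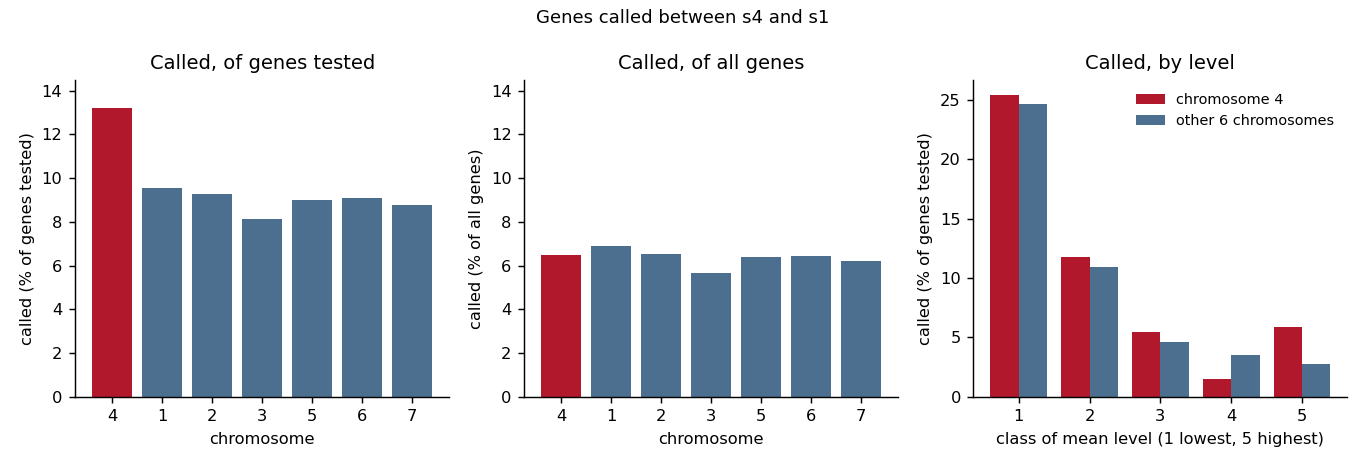
Genes called between s4 and s1 in percent of the genes tested (left), in percent of all genes (middle) and in percent of the genes tested in 5 classes of mean level (right), chromosome 4 in red and the others in blue. Chromosome 4 stands apart at 13.2% on the left, lies among the others at 6.48% in the middle, and is within 1 percentage point of the rest in classes 1 to 3.

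Along the chromosome the share called between s4 and s1 ran from 3.92% of the genes tested in window 7 to 19.4% in window 2, and 4 windows, 1, 2, 8 and 9, lay above the highest of the 60 windows of the others, 14.4%. These shares are of the genes tested and were not taken within classes of level. Of all their genes, expressed or not, windows 1, 2, 8 and 9 had 34, 28, 26 and 27 called among 315 each. Window 8 of chromosome 1, the one at 14.4%, had 46 called among 504. In window 6, 11 of 15 called genes were lower at s4, the only window besides window 7 in which the lower ones were the more numerous. Of the 204 called genes, 42 (20.6%) stood directly beside another gene called in the same direction. On the other chromosomes this share ran from 12.7% to 23.6%, chromosome 6 being the highest. The longest such stretches on chromosome 4 held 3 genes, Aqcoe4G188100 to Aqcoe4G188300, lower at s4, and Aqcoe4G292900 to Aqcoe4G293100, higher at s4.

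The neighbouring stages differed in few genes of chromosome 4. Between s2 and s1, 9 genes were called, 0.584% of its genes tested beside 0.596% of all, with 8 higher at s2 (0.488% of all genes tested were) and 1 lower (0.107% of all). Without s1 replicate 6 the count was 4, 0.259% beside 0.357% of all. Between s3 and s2, 6 genes were called, 0.389% beside 0.313% of all genes tested, all 6 of them higher at s3 (0.259% of all). The p threshold alone was passed by 10 genes, 0.649% beside 0.620% in the rest. DESeq2 called 12, 0.778% beside 0.537% of all. Over all genes tested 0.0537% were lower at s3. Between s4 and s3, 27 genes were called, 1.75% beside 1.19% of all, with 23 higher at s4 (0.879% of all) and 4 lower (0.308% of all). Between s3 and s1 the count was 91, 5.90% beside 3.76% of all genes tested, with 74 higher at s3 (3.15% of all) and 17 lower (0.606% of all). Between s4 and s2 it was 106, 6.87% beside 5.0% of all, with 79 higher at s4 (3.90% of all) and 27 lower (1.09% of all). With more than 1 CPM required in at least 8 libraries the count here was 63, 4.82% beside 3.97% of all. By that filter it was 14 between s4 and s3, 1.07% beside 0.991% of all. In percent of all genes, expressed or not, the calls between s3 and s1 were 2.89% on chromosome 4 and 2.55% in the rest. By the same measure they were 3.37% and 3.44% between s4 and s2, and 0.857% and 0.811% between s4 and s3. These comparisons were not taken within classes of level. In all, 217 genes of chromosome 4 were called in at least 1 comparison, 14.1% of its genes tested, beside 10.03% of all and 9.74% in the rest. This share was not taken within classes of level either. Of the 217 genes, 2 were called in 5 of the 6 comparisons.

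Among the regulators of meristem and flower, *AqSTM1* (Aqcoe4G224800), a homolog of the KNOX homeobox gene that keeps meristem cells undifferentiated, was lower at every later stage and called at s3 and s4. Its lowest, median and highest levels were 104, 143 and 179.5 TPM at s1, 67.6, 90.3 and 103 in s2 buds, 47.4, 60.3 and 77.2 in s3 buds and 23.3, 33.0 and 42.6 in s4 buds. All 8 libraries of each later stage lay below all 8 of s1, and s4 lay wholly below s3. On the log2 scale the change was -2.02 ± 0.12 SE, edgeR adjusted p 1.1e-13 for s4 against s1, and for s2 against s1 it was -0.65 ± 0.12 SE, edgeR adjusted p 0.0028, under the fold change limit. The homolog of *UFO* (Aqcoe4G199100), an F-box protein that acts with LEAFY in the identity of petals and stamens, fell with it. It had 4.27, 6.30 and 11.5 TPM at s1, 0.00639, 3.97 and 8.11 in s2 buds, 0.000432, 1.64 and 3.12 in s3 buds and 0, 0.0323 and 1.62 in s4 buds, where only replicate 3 was above 0.478 TPM. No library of s4 reached the lowest of s1, and the change on the log2 scale was -4.46 ± 0.79 SE, edgeR adjusted p 7.3e-05, while s3 against s1 missed the threshold (-2.11 ± 0.69 SE, edgeR adjusted p 0.054). The near-zero lows at s2 and s3 were both in replicate 1. Kallisto divides reads that match several transcripts by estimate, and how far this gene shares reads with others was not tested.

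A B3-domain gene related to *REM39* and *VRN1* (Aqcoe4G200200) was low throughout and fell too. It had 0, 0.680 and 1.52 TPM at s1 and 0, 0 and 0.0768 at s4, ranges that overlapped at 0, and the change on the log2 scale was -4.97 ± 1.07 SE, edgeR adjusted p 0.00075 for s4 against s1. The homolog of *CBF2* (Aqcoe4G238900), a factor of the cold response, had 0.645, 2.57 and 4.18 TPM at s4 and 4.05, 7.55 and 14.1 TPM at s1, with 7 of 8 libraries of s4 below every one of s1 (-1.83 ± 0.36 SE, edgeR adjusted p 0.00028). In the other direction, the bZIP gene like *BZIP61* (Aqcoe4G068200) rose, with a higher median at each later stage. Its levels were 0, 0.113 and 0.455 TPM at s1, 0.220, 0.334 and 0.634 in s2 buds, 0.343, 1.47 and 2.13 in s3 buds and 2.50, 2.93 and 10.6 in s4 buds, the highest of them in s4 replicate 4. It was the 1 regulator of the list called between s4 and s3 (1.79 ± 0.43 SE, edgeR adjusted p 0.012), beside 5.04 ± 0.52 SE, edgeR adjusted p 7.8e-09 for s4 against s1.

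Of the 16 transcriptional and floral regulators, 15 were tested and 14 were called between s4 and s1, 5 higher and 9 lower at s4, with a median log2 fold change of -1.47 beside 0.01 over all genes tested. The share called over all genes tested, 9.24%, is no measure for a list chosen in this way. The list and those that follow hold only genes that the authors had called in these libraries, so that their counts and medians are a description and not independent evidence of a direction. Among the 5 that rose were the homolog of *GLK1* (Aqcoe4G079000), which promotes chloroplast development, with 13.0 ± 2.70 TPM at s4 and 5.51 ± 1.54 at s1, and that of *DOF1* (Aqcoe4G144000), with 7.80 ± 2.09 TPM at s4 and 2.49 ± 1.16 at s1 (SD, n = 8 each). The green-tissue gene *LHCB1.3*, an antenna protein of photosynthesis, has its homolog on the same chromosome (Aqcoe4G047100), and it rose likewise, to 174 ± 72.1 TPM at s4 against 80.4 ± 29.9 at s1. The part of green or vascular tissue in these changes was not tested.

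In a stretch of window 6, 8 annotated genes were all lower at s4 than at s1. They were taken from genes that the authors had called in these libraries, so that their shared direction is not independent evidence. Genes outside the list lie between them, and of those Aqcoe4G185300 was also called lower at s4. The 8 genes fall into 2 sets annotated to like genes. Each set has a jmjC-domain gene, an FKBP-like prolyl isomerase, which helps proteins to fold, a *storekeeper*-related DNA-binding gene and a gene like AT3G56870. The 8 genes made up 8 of the 11 genes of that window that were lower at s4. The FKBP-like Aqcoe4G184600 had 4.32, 15 and 18.8 TPM at s4 and 28.6, 36.6 and 49.8 at s1 (-1.34 ± 0.17 SE, edgeR adjusted p 4.9e-07). The other, Aqcoe4G188200, had 9.04, 10.2 and 14.4 TPM at s1, 4.24, 5.42 and 6.38 in s2 buds, 2.29, 2.98 and 3.90 in s3 buds and 1.47, 2.72 and 3.40 in s4 buds (-1.95 ± 0.13 SE, edgeR adjusted p 1.2e-12). In both, every library of s4 was below every library of s1.

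The *storekeeper*-related pair was lower in level, with 0.149, 0.336 and 0.957 TPM at s4 and 1.25, 1.65 and 2.09 at s1 for Aqcoe4G188300 (-2.02 ± 0.36 SE, edgeR adjusted p 6.8e-05), and 0.113, 0.361 and 1.04 TPM at s4 and 0.923, 2.47 and 3.29 at s1 for Aqcoe4G185000 (-2.16 ± 0.39 SE, edgeR adjusted p 0.0001). The jmjC gene Aqcoe4G186700 had 0.381, 1.22 and 3.85 TPM at s4 and 2.80, 4.60 and 8.99 at s1 (-1.47 ± 0.41 SE, edgeR adjusted p 0.008). Over the 8 genes the median log2 fold change was -1.79. Kallisto divides reads that match several transcripts by estimate, and how far these genes share reads was not tested. The jmjC and *storekeeper*-related genes are also members of the list of regulators.

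Of the other genes that the study singled out on this chromosome, the homolog of *STP1* (Aqcoe4G260600), a transporter that takes up hexoses, was the 1 gene of chromosome 4 called lower at s2 against s1. It had 5.62, 9.62 and 16.7 TPM at s1, 2.70, 3.65 and 9.14 in s2 buds, 1.26, 2.52 and 4.96 in s3 buds and 1.17, 1.81 and 4.90 in s4 buds. On the log2 scale the change was -1.27 ± 0.29 SE, edgeR adjusted p 0.024 for s2 against s1 and -2.18 ± 0.30 SE, edgeR adjusted p 1.9e-06 for s4 against s1, and all 8 libraries of s4 lay below all 8 of s1. Without s1 replicate 6 the call at s2 was lost (-1.16, edgeR adjusted p 0.069). The gene of unknown function Aqcoe4G028700 (DUF641) had 32.1, 43.4 and 69.5 TPM at s4 and 86.7, 95.4 and 127 at s1 (-1.02 ± 0.17 SE, edgeR adjusted p 3.2e-05). Its fold change was at the limit, and DESeq2 and RLE size factors put it just under, both at -0.9998. The homolog of *GH3.5* (Aqcoe4G269800), an enzyme that conjugates auxin to amino acids, had 30.6, 43.8 and 486 TPM at s4 and 180.1, 254 and 404 at s1. All libraries of s4 but replicate 4 lay below those of s1, and with that library at the top the change did not pass (-1.15 ± 0.52 SE, edgeR adjusted p 0.11). Without it the gene was called lower at s4 (-2.17, edgeR adjusted p 0.00033).

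Several of these genes rose. A membrane-bound O-acyltransferase (MBOAT) gene, Aqcoe4G281800, of a family that includes wax synthases, had 0.457, 0.931 and 2.44 TPM at s1, 1.27, 2.73 and 5.10 in s2 buds, 3.92, 6.17 and 8.64 in s3 buds and 5.91, 9.99 and 12.4 in s4 buds. It was called between s2 and s1 (1.37 ± 0.28 SE, edgeR adjusted p 0.0073) and between s4 and s1 (3.27 ± 0.29 SE, edgeR adjusted p 2.7e-10), and s4 and s1 did not overlap. The leucine-rich repeat kinase Aqcoe4G245900 had 2.75, 4.23 and 6.51 TPM at s4 and 0.0750, 0.517 and 1.93 at s1 (2.76 ± 0.37 SE, edgeR adjusted p 9.3e-07), also without overlap. The tetratricopeptide-repeat gene Aqcoe4G003000 had 1.81, 4.86 and 6.27 TPM at s4 and 0.866, 1.08 and 1.62 at s1 (2.10 ± 0.36 SE, edgeR adjusted p 3.8e-05). Aqcoe4G079300, which carries no description, had 0, 0 and 0.194 TPM at s1, 0, 0 and 0.0777 in s2 buds, 0.202, 0.417 and 1.40 in s3 buds and 0.133, 1.05 and 2.19 in s4 buds. The X8-domain gene Aqcoe4G014200, of a family that binds callose, had 0.336, 0.569 and 1.94 TPM at s3 and 0, 0.115 and 0.393 at s2, with 6 of 8 libraries of s3 above all of s2 (2.72 ± 0.62 SE, edgeR adjusted p 0.025). Its call between s3 and s1 (1.81 ± 0.58 SE, edgeR adjusted p 0.048) was lost without s1 replicate 6 (edgeR adjusted p 0.099) and with no low-count filter (0.061).

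A run of 3 adjacent genes, Aqcoe4G010600, Aqcoe4G010700 and Aqcoe4G010800, ranked 1, 12 and 4 by mean TPM on the chromosome. The middle one is a homolog of *BGLU44*, a beta-glucosidase of glycoside hydrolase family 1. It had 86.1, 139 and 399.8 TPM at s1, 284, 460.2 and 656 in s2 buds, 588, 677 and 998.7 in s3 buds and 439.9, 554 and 954 in s4 buds. It was called between s2 and s1 (1.36 ± 0.26 SE, edgeR adjusted p 0.0046) and between s4 and s1 (1.85 ± 0.27 SE, edgeR adjusted p 3.2e-06), and s4 lay wholly above s1. Its neighbours were higher and did not pass the test. Aqcoe4G010600, the highest gene of chromosome 4 by its mean over 32 libraries, had 849, 1337 and 1657 TPM at s4 and 843, 1416 and 2306 at s1 (-0.16 ± 0.16 SE, edgeR adjusted p 0.51), and Aqcoe4G010800 had 571, 800.1 and 2404 at s4 and 287, 616 and 1617 at s1 (0.48 ± 0.35 SE, edgeR adjusted p 0.32).

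Of the 10 highest genes, which have no annotation in the sources used here, 1 was called between s4 and s1. Aqcoe4G279800 had 488, 566 and 666 TPM at s1, 537, 598 and 939 in s2 buds, 639.6, 833 and 1416 in s3 buds and 443, 1158 and 1789 in s4 buds (1.10 ± 0.21 SE, edgeR adjusted p 0.00014), and in 7 of 8 libraries of s4 it was above all of s1. Aqcoe4G205200 had 727, 1189 and 1318 TPM at s4 and 789.5, 961 and 1078 at s1 and stayed under the fold change limit (0.33 ± 0.11 SE, edgeR adjusted p 0.025). The widest spread was in Aqcoe4G128600, which ran from 22.3 to 2616 TPM within s4 alone and from 63.2 to 3347 TPM within s3. The other members of the 10 were Aqcoe4G022500, Aqcoe4G055800, Aqcoe4G281000, Aqcoe4G251700 and Aqcoe4G055300, with means of 1497, 1386, 746, 704 and 689 TPM.

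**Figure D5:**
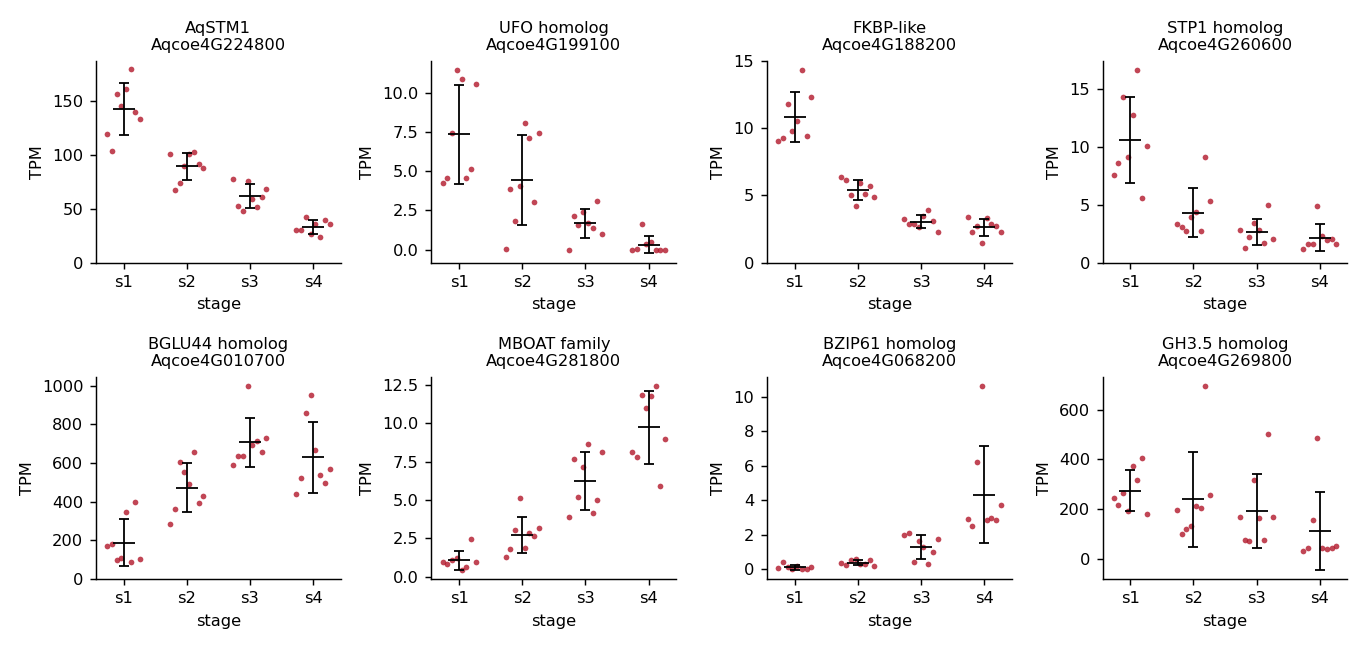
TPM of 8 genes of chromosome 4 by stage, on linear axes of their own scale. Each red point is 1 library, and the black mark and bar are the mean and SD of the 8 libraries of a stage; *AqSTM1*, the *UFO* homolog, the FKBP-like gene and the *STP1* homolog are lower at s4 than at s1 in all libraries, and the *GH3.5* homolog in all but replicate 4 of s4.

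Enzymes of specialised metabolism made up the largest list. Of 26 cytochrome P450 genes, which oxidise small molecules, 17 were higher at s4 than at s1, 6 were lower and 3 were not called, with a median log2 fold change of 2.01. Of them 9 carry the *CYP72A15* or *CYP72A13* name, and 7 of these were higher at s4, among them Aqcoe4G120700 (3.27 ± 1.29 TPM at s4 and 0.587 ± 0.315 at s1) and Aqcoe4G137900 (0.762 ± 0.350 TPM at s4 and 0.0298 ± 0.0396 at s1; SD, n = 8 each). The homolog of *CYP75B1* (Aqcoe4G009500), the flavonoid 3′-hydroxylase, had 4.24 ± 4.10 TPM at s4 and 0.0925 ± 0.0704 at s1 (5.56 ± 0.90 SE, edgeR adjusted p 2e-05). That of *CYP710A1* (Aqcoe4G009200), a sterol desaturase, was lower, with 4.0 ± 1.48 TPM at s4 and 8.97 ± 2.55 at s1 (-1.08 ± 0.26 SE, edgeR adjusted p 0.0026). The neighbours Aqcoe4G016200 and Aqcoe4G016300, both like *CYP96A10*, moved apart, with 1.06 ± 0.19 SE, edgeR adjusted p 8.1e-05 for the first and -2.47 ± 0.35 SE, edgeR adjusted p 3e-06 for the second. Aqcoe4G249700 and Aqcoe4G249900, both like *CYP706A4*, had the same length and the same TPM, to within 0.001, in 31 of 32 libraries, and reads of such copies are divided by estimate. Of 6 glycosyltransferases, which attach sugars to small molecules, 4 rose and 1 fell, namely Aqcoe4G131300, like *UGT85A4*, with 4.24 ± 1.64 TPM at s4 and 9.40 ± 3.21 at s1 (-1.07 ± 0.28 SE, edgeR adjusted p 0.005). Without s4 replicate 4 its change was -0.94, under the fold change limit.

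Of 15 NB-ARC genes, intracellular receptors of immunity, 11 were higher at s4 than at s1 and the other 4 were not called. Of those 4, Aqcoe4G115100 had 0.111, 0.669 and 0.895 TPM at s4 and 1.01, 1.10 and 1.38 at s1, with all 8 libraries of s4 below all of s1 and a change just under the limit (-0.95 ± 0.28 SE, edgeR adjusted p 0.013). Without s4 replicate 4 it passed, at -1.01. The log2 fold change of Aqcoe4G160300 was -0.64 ± 0.25 SE, edgeR adjusted p 0.061, that of Aqcoe4G046700 1.48 ± 0.59 SE, edgeR adjusted p 0.062 and that of Aqcoe4G075200 0.35 ± 0.66 SE, edgeR adjusted p 0.74. Levels were low, since the highest mean at s4 was 1.83 TPM. Aqcoe4G120600, like *ZAR1*, had 0, 0.0342 and 0.198 TPM at s1, 0.0728, 0.192 and 0.724 in s2 buds, 0.143, 0.399 and 0.887 in s3 buds and 0.590, 0.965 and 1.47 in s4 buds and was called between s2 and s1 (2.18 ± 0.56 SE, edgeR adjusted p 0.045), a call lost without s1 replicate 6 (edgeR adjusted p 0.1) and with no low-count filter (0.058). All 8 of its s4 libraries were above all of s1 (4.23 ± 0.55 SE, edgeR adjusted p 6.9e-07). Of 7 receptor-like kinases, which sense signals at the cell surface, 5 rose and 1 fell. Of 13 transporters 9 rose and 2 fell. Among them the homolog of *MSL10* (Aqcoe4G255400), a mechanosensitive channel, had 7.26 ± 2.98 TPM at s4 and 2.08 ± 0.696 at s1 (1.88 ± 0.25 SE, edgeR adjusted p 7.1e-07), and that of *CNGC4* (Aqcoe4G259900), a cation channel, had 35.2 ± 7.19 TPM at s4 and 17.6 ± 8.09 at s1 (1.10 ± 0.19 SE, edgeR adjusted p 3.4e-05), just under the limit without s4 replicate 4, at 0.995.

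Of 12 cell wall genes, 11 were higher at s4 than at s1 and 1 was lower, with a median log2 fold change of 2.59, also with genes at 0 set to their bound. The 2 putative cell wall protein precursors were highest at s4. Aqcoe4G105300 had 0.351, 2.18 and 10.2 TPM at s4 and 0 in all libraries of s1, so that it was at least 61.4-fold higher at s4 (edgeR adjusted p 5.7e-06), a bound from a floor of 3 counts over the 8 libraries of s1. Aqcoe4G157200 had 0, 0.740 and 6.88 TPM at s4, at least 40.0-fold higher than s1, where it was also at 0 throughout (edgeR adjusted p 0.00017). The homolog of *CESA8* (Aqcoe4G032300), a cellulose synthase of secondary walls, had 1.06, 2.91 and 4.52 TPM at s4 and 0.105, 0.805 and 1.45 at s1 (1.99 ± 0.37 SE, edgeR adjusted p 0.00012). The 1 gene that fell was like *CSLB04* (Aqcoe4G151300), with 2.77 ± 2.15 TPM at s4 and 6.69 ± 2.48 at s1 (-1.15 ± 0.43 SE, edgeR adjusted p 0.049), and its call was lost with RLE size factors, with no or a stricter filter and without s1 replicate 6, where the adjusted p ran from 0.052 to 0.056.

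Of 7 vascular genes, 6 were higher at s4 than at s1. They were the homologs of *CESA8*, the secondary-wall regulator *SND2* (Aqcoe4G076900), the peptidase *XBCP3* (Aqcoe4G042400, 36.8 ± 9.36 TPM at s4 and 18.0 ± 4.24 at s1) and 3 phloem lectins of the *PP2-A* family. The other lectin, Aqcoe4G084100, was not called between s4 and s1 (0.81 ± 0.45 SE, edgeR adjusted p 0.2), with 1.91, 4.25 and 4.43 TPM at s1, 0.0526, 1.44 and 3.05 in s2 buds, 0.155, 1.21 and 1.80 in s3 buds and 1.05, 5.42 and 11.8 in s4 buds. Of 4 hormone genes, 3 were higher at s4, namely both copies of *ABA2* (Aqcoe4G266800 and Aqcoe4G266900), an enzyme of abscisic acid synthesis, and the homolog of *BAS1* (Aqcoe4G239700), which inactivates brassinosteroids, with 63.6, 80.2 and 145 TPM at s4 and 20.5, 41.2 and 98.5 at s1 (1.09 ± 0.37 SE, edgeR adjusted p 0.028). The homolog of *SHT* (Aqcoe4G056700), an acyltransferase known from the tapetum, was at 0 in all libraries of s1 and s2 and had 0, 0.215 and 0.952 TPM at s4, at least 22.3-fold higher than s1. The ribonuclease gene like *RNS3* (Aqcoe4G223400) had 0, 0.528 and 6.13 TPM at s4 and 0 in all libraries of s2 and s3, at least 48.4-fold higher at s4 than at s3.

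A short stretch of window 2 stood apart in 1 library. In s4 replicate 4, Aqcoe4G056300 had 1229 TPM against a highest value of 17.7 TPM in the other 31 libraries, Aqcoe4G056200 had 270.4 TPM against 3.26, Aqcoe4G055900 had 2454 TPM against 368, and Aqcoe4G054200 had 278 TPM against 67.9. Aqcoe4G055800 and Aqcoe4G055300, at 1331 and 667 TPM in the median of the other libraries, reached 3001 and 2010 TPM there. Other genes of the stretch, such as Aqcoe4G054900 with 4.18 TPM in this library and 3.04 to 6.67 TPM in the others, did not stand apart. Aqcoe4G056300 was called between s4 and s1 (9.24 ± 1.98 SE, edgeR adjusted p 0.00069), and without that library its log2 fold change was 1.55 with an adjusted p of 0.37 (edgeR), and with DESeq2 it was 1.59 with an adjusted p of 0.46. The same library gave chromosome 4 its highest part of all TPM, 4.94%, while the count of calls between s4 and s1 was 204 with and without it, 178 of them the same genes. Without that library the 204 were 13.3% of the genes of chromosome 4 tested, beside 9.87% of all.

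Genes that were on in some libraries and off in others were few. A TPM of at least 1 in at least 8 libraries together with a count of 0 in at least 8 was found for 16 genes of chromosome 4, 0.508%, against 82 genes of the rest, 0.311%, and the other chromosomes ran from 0.158% to 0.496%. Only 4 of the 16 passed the filter on low counts. One that changed with stage was Aqcoe4G271900, with 0, 0 and 0.141 TPM at s1, 0, 0.0524 and 0.953 in s2 buds, 0.0885, 1.19 and 2.54 in s3 buds and 0.464, 4.85 and 10.8 in s4 buds, all 8 libraries of s4 being above all of s1 (edgeR adjusted p 1.2e-06). Aqcoe4G160500 and Aqcoe4G267200, the others among the 5 highest, were scattered over all stages at no more than 5.23 TPM.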

How the data were processed

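RNA of 32 libraries was amplified with SMART-Seq v4, made into Nextera XT libraries and sequenced in pairs. The authors trimmed reads with Trim Galore 0.6.5 at a quality cutoff of 20 and quantified them with kallisto 0.46.1 against the 'Goldsmith' transcriptome, version 3.1. They deposited estimated counts and TPM per transcript. The deposited TPM were used for levels. Estimated counts were rounded and tested with edgeR 4.0.16 in R 4.3.3 (TMM scaling, quasi-likelihood test, stage as factor, 1 fit over all libraries, more than 1 CPM in at least 1 library, Benjamini-Hochberg adjustment over 20477 genes). The SE of a log2 fold change is its size divided by the square root of the F statistic of the edgeR test. It was not estimated apart from that test. The study used DESeq2, which was run here (1.42.0) as an alternative. In simulated data for s4 against s1 with 200 planted changes of log2 2, edgeR recovered 96.5%. The changes were planted only in genes with a mean above 1 CPM, so that recovery in lower genes was not tested. Replicates are separate libraries. The paper took its buds from fewer plants than buds, so that some plants gave buds to more than 1 library. Which libraries share plants is not given, and p-values measure the spread between libraries and not between plants.

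Named genes were those the study names and the *UFO* homolog, the called annotated genes of highest and lowest fold change, the 10 of highest mean TPM, the members of the gene lists, and 5 genes on in some libraries and off in others. The chromosome, the lists and the tests were chosen with earlier results of these data known. Alternatives were other scalings, filters, counts, a replicate block, a residual component, and leaving out a library. No sequence and no coordinates were used here.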

Additional observations from a re-analysis of the deposited data

Results flagged for a closer look

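Of 120 groups of 8 libraries, from 30 measures and genes, 23 held a library past Dixon's critical value. The gap of such a library to the next was larger, relative to the range of its group, than that value. Chance gives about 1 in 20 such groups only where values are independent and normally distributed. TPM of single genes, some of them named for being on in some libraries and off in others, need not be so distributed. The count of 23 is therefore a list for inspection and does not measure an excess of odd libraries.

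Replicate 4 of s4 stood apart in 6 of them. It was the highest library of its stage for Aqcoe4G054200 (277.6 TPM, the next at 0.551), Aqcoe4G056300 (1229 TPM, the next at 3.46), Aqcoe4G128600 (2616 TPM, the next at 753), the *STP1* homolog Aqcoe4G260600 (4.90 TPM, the next at 2.33) and the *GH3.5* homolog Aqcoe4G269800 (486 TPM, the next at 154). It was the lowest for Aqcoe4G281000 (112 TPM, the next at 541).

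Replicate 7 of s2 was the highest of its stage for Aqcoe4G054200 (40.6 TPM), Aqcoe4G128600 (2855 TPM), Aqcoe4G260600 (9.14 TPM) and Aqcoe4G269800 (694.7 TPM), all of which were also highest in replicate 4 of s4. Aqcoe4G054200 was further set apart in s1 replicate 5 (23.5 TPM) and s3 replicate 7 (67.9 TPM), so that 1 library of each stage carried most of its level.

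The others were single high libraries. Among genes named for their change with stage, these were Aqcoe4G010700 in s3 replicate 4 (998.7 TPM), Aqcoe4G281800 in s1 replicate 7 (2.44 TPM), the *UFO* homolog Aqcoe4G199100 in s4 replicate 3 (1.62 TPM) and Aqcoe4G188300 in s4 replicate 7 (0.957 TPM). Aqcoe4G281000 had 1529 TPM in s1 replicate 8. At low levels they were Aqcoe4G014200 in s2 replicate 5 (0.393 TPM), Aqcoe4G056300 in s1 replicate 4 (1.90 TPM), Aqcoe4G079300 in s1 replicate 8 (0.194 TPM) and in s3 replicate 2 (1.40 TPM), Aqcoe4G267200 in s3 replicate 5 (4.01 TPM) and Aqcoe4G271900 in s2 replicate 4 (0.953 TPM).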

How the results depend on the processing

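The lower share expressed and the lower level of chromosome 4 kept their direction in all alternatives run. The share expressed differed by -21.9 percentage points, by -24.0 with more than 1 CPM in at least 8 libraries, -25.3 in all 32, -24.0 at a mean TPM of at least 1, -8.08 with a count of 1 in any library and -18.0 within length classes. The log2 ratio of median TPM was -1.22, and -3.76 over all genes, -0.92 over genes with a mean TPM of at least 1 and -1.10 for log2(TPM + 1). That of median length was -0.18, and -0.044 for genes tested, -0.13 at a mean TPM of at least 1 and -0.21 for effective length. The part of all TPM was 4.27%, and 4.88% of counts and 3.24% without the 10 highest genes.

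Counts of calls depended on the low-count filter. With more than 1 CPM in at least 8 libraries, chromosome 4 had 130 calls between s4 and s1, 63 between s4 and s2 and 14 between s4 and s3. These were 9.95%, 4.82% and 1.07% of its genes tested, beside 7.60%, 3.97% and 0.991% of all. DESeq2 gave 14 between s2 and s1 (0.908% beside 0.977% of all) and 12 between s3 and s2 (0.778% beside 0.537% of all). The first residual component gave 16, 16 and 47 for s2 against s1, s3 against s2 and s4 against s3. In that order the shares were 1.04%, 1.04% and 3.05% on chromosome 4, beside 1.01%, 0.630% and 2.35% of all. Without s1 replicate 6, 4 remained between s2 and s1 (0.259% beside 0.357% of all). The excess of calls, 4.26 percentage points, was 2.49 with the filter on 8 libraries and 0.740 within level classes. Over all genes it was 0.119 and with no filter 1.42, both chosen after seeing the data. The excess in within-stage SD, 0.12, was 0.0288 within level classes and 0.0473 for genes over 1 CPM in all 32 libraries. The cause was not tested.

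Under 9 other fits the 254 calls of named genes gave 2175 values, of which 2089 kept direction and call, 81 lost the call and 5 reversed. The other 111 have no value since the gene failed that fit's filter, 101 of them with more than 1 CPM in at least 8 libraries, where 152 calls were kept, and 10 without s4 replicate 4. Aqcoe4G056300 reversed between s4 and s3, to -1.78 with DESeq2, -0.15 with the replicate block, -0.0239 with the residual component and -2.56 without s4 replicate 4 (5.14 without s1 replicate 6), and Aqcoe4G058900 to -0.46 with DESeq2.

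Replicate numbers recur at every stage. Of 48 same-numbered pairs of libraries, 17 deviated together (correlation over 0.1), and the correlations ran from -0.4565 to 0.622. Replicate 2 was over 0.1 in every pair of stages, from 0.24 to 0.524. Libraries of unlike number were not compared in this way, so the count cannot decide whether the numbers mark pairs. Same-numbered libraries were not taken as pairs. With the replicate block, chromosome 4 had 6, 87, 193, 7, 97 and 21 calls for s2, s3 and s4 against s1, s3 and s4 against s2, and s4 against s3. In that order these were 0.389%, 5.64%, 12.5%, 0.454%, 6.29% and 1.36% of its genes tested. Over all genes tested the shares were 0.483%, 3.69%, 8.85%, 0.313%, 4.68% and 1.02%.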

Other observations

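In the share tested, the median level and the share without a count, the 473 genes of unplaced scaffolds were nearest to chromosome 4. Of them 226 were tested, 47.8%, with a median of 4.72 TPM. No count was found in any library for 41 of them, 8.67%. Their median transcript length was 944 bp, farther from the 1234 bp of chromosome 4 than the 1372.5 bp of chromosome 2. They gave 0.440% of all TPM.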
